A study of Homo sapiens with 3 samples.

Results

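Messenger RNA of the proteasome was followed in Caco-2, an established line from a human colon carcinoma that serves as an intestinal epithelial model. The genes were the protein-coding rows whose symbol begins with PSMA, PSMB, PSMC, PSMD, PSME, PSMF or PSMG and a digit, which gave 50 members among 60664 gene rows. There were 3 groups of wild-type cells with 1 RNA-seq library each: untreated control cells, cells exposed for 8 h to 3% dextran sulfate sodium (DSS), and cells that received 30 µM polydatin for 2 h before DSS and again with 3% DSS for 8 h. Polydatin is the glucoside of resveratrol. DSS, a sulfated polysaccharide, is given to rodents to induce colitis. No vehicle is named for the control cells, and no group received polydatin alone. A single cell line gave every library and no group has a replicate, so each ratio compares 2 libraries, no p-value is given, and the intervals in parentheses are 95% counting intervals.

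The proteasome degrades proteins tagged with ubiquitin. Its barrel, the 20S core, is built of outer alpha rings (PSMA genes) that gate the entrance and inner beta rings (PSMB genes) that hold the cutting sites. The 19S cap recognises, deubiquitinates, unfolds and feeds the substrates, using ATPases (PSMC genes) and non-ATPase subunits (PSMD genes). Interferon induces alternative beta subunits, PSMB8, PSMB9 and PSMB10, which take the places of PSMB5, PSMB6 and PSMB7 and form the immunoproteasome, whose peptides feed antigen presentation. Other caps (PSME genes) open the core without ATP, PSMF1 encodes an inhibitor, and PSMG genes encode chaperones of core assembly. The transcription factor NFE2L1 raises all core and cap genes together when proteasome activity is short, and NFE2L2, its relative, responds to oxidative stress.

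Library totals were 16667622 to 18825914 counts. Levels are given as CPM, CPM being the count relative to the library total after trimmed-mean-of-M (TMM) scaling, and a gene counted as measured at a CPM of 1 in at least 1 library, which 14792 genes and 46 of the 50 members did. Of 11 colon epithelial markers, 8, 8 and 9 reached that level in control, DSS and DSS plus polydatin, with summed levels of 7524, 9073 and 7273 CPM, while CDX1 had 0 counts in every library. Leukocyte markers summed to 3.36, 7.99 and 4.88 CPM with PTPRC at 0, fibroblast markers to 41.7, 40.97 and 46.7 CPM, and endothelial markers to 24.9, 17.4 and 13.5 CPM with KDR at 0. PECAM1 made up most of the endothelial sum, at 24.4, 16.0 and 9.52 CPM, while VWF rose, at 0.496, 1.19 and 3.90 CPM. COL1A1 made up most of the fibroblast sum, at 39.65, 37.8 and 43.3 CPM. The marker sums differ between the libraries, and their part in the results was not tested. All libraries came from a single cell line, and bulk values cannot tell fewer cells with a transcript from less of it per cell.

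In total, proteasome transcripts were most abundant in control cells and least abundant in cells given DSS plus polydatin. The 50 members summed to 6141 CPM in control, 5873 CPM in DSS and 5103 CPM in DSS plus polydatin. The DSS sum was 0.956 times the control sum (0.948 to 0.964), and the sum in DSS plus polydatin was 0.869 times the DSS sum (0.861 to 0.877). Against control, the sum in DSS plus polydatin was 0.831 times (0.824 to 0.838). These intervals leave out the choice of scaling, which was varied for medians and calls and not for these sums. Each step was downward, and the step between the DSS libraries was the wider one.

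The 4 members that were not measured were PSMA8, an alpha subunit of germ cells, and PSMB11, the beta subunit of the thymus, with 0 counts in every library, and the immunoproteasome subunits PSMB8 and PSMB9. A count of 0 allows up to 0.165 CPM in control, 0.162 CPM in DSS and 0.172 CPM in DSS plus polydatin, where 3 counts are taken as the limit. The measured members ranged in control from 0.831 CPM per kb of transcript for PSMD9 to 379.6 CPM per kb for PSMA7, with a median of 57.3 CPM per kb. PSMA7 stood highest per length in each library.

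**Figure D1:**
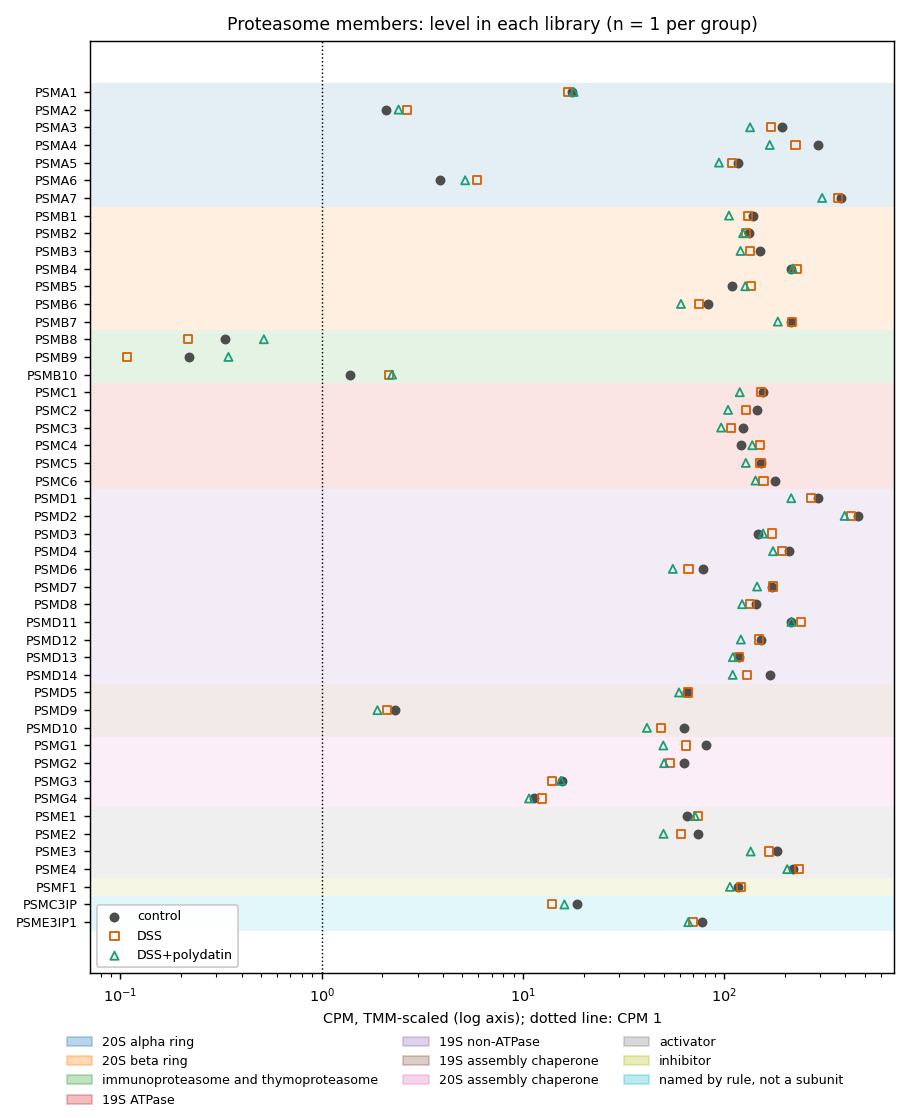
Level of each proteasome member in the 3 libraries, as TMM-scaled CPM on a log axis, with 1 point per library and the dotted line at a CPM of 1. The members at 0 counts in every library are not drawn. PSMB8 and PSMB9 lie left of the line, PSMB10, PSMA2, PSMA6 and PSMD9 lie just right of it, and the core and cap subunits with the highest levels lie above 100 CPM.

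A group of 5 measured members had low levels and share exons with another gene. In GENCODE release 29, the exons of another protein-coding gene on the same strand cover 80.95% of the main transcript of PSMA6, 53.2% of PSMA1, 52.5% of PSMA2, 45.3% of PSMB10 and 43.8% of PSMD9. The other 41 measured members share at most 0.0712% of theirs. In control, those 5 lay between 0.831 and 11.7 CPM per kb with a median of 1.41, and the other 41 between 11.2 and 379.6 with a median of 66.0. The overlapping genes themselves held 0 to 11 counts in a library. Reads in shared exons can be dropped or split by a counting program, which is not given in the sources used here, so the levels of PSMA1, PSMA2, PSMA6, PSMB10 and PSMD9 are uncertain. The part of shared exons in their low levels was not tested.

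**Figure D2:**
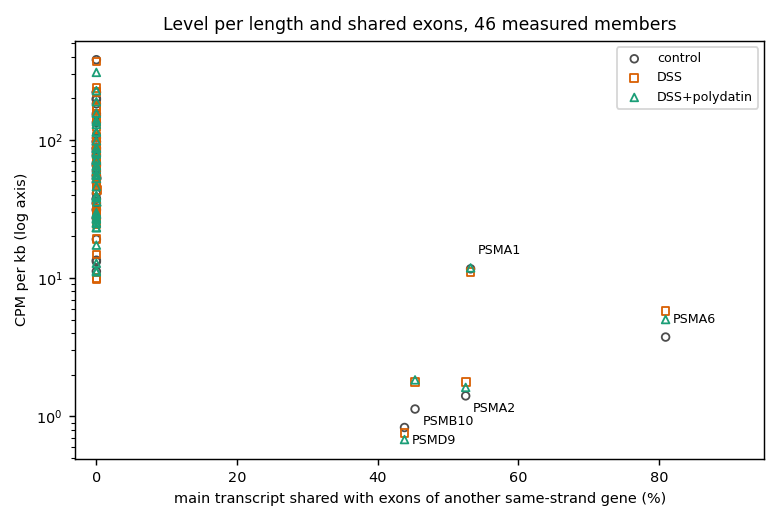
Share of each measured member's main transcript that exons of another same-strand gene cover, in percent, against its level in CPM per kb on a log axis, with 1 point per member and library. The 5 named members lie between 43.8% and 80.95%, at 11.9 CPM per kb or less, and the other 41 lie at or near 0%.

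Compared with control, DSS-treated cells held less message for 22 of 46 measured members and more for 8, going by intervals that exclude 1, and the differences were small. Among all 14792 measured genes, 4020 intervals lay below 1 and 3854 above, and among the 10084 at a CPM of 10, 3481 and 3104. Over the 46 measured members the median log2 ratio was -0.09, beside -0.01 over all measured genes and -0.02 over the 10084 genes that reached a CPM of 10. Below control were 30 members (65.2%), beside 50.5% of all measured genes. A gene was called at a ratio of at least 1.5-fold with an interval excluding 1. By that rule 1 member was higher, PSMA6, one of the genes with shared exons, where 9.45% of all measured genes were higher, and 0 were lower, where 5.81% of all measured genes were lower. At a looser rule, a ratio of 0.8 or less or its inverse with an interval excluding 1, 5 members were lower (10.9%, beside 14.2% of measured genes): PSMA4, PSMD14, PSMD10, PSMG1 and PSMC3IP. By that rule 1 was higher, PSMA6 (2.17%, beside 16.8%). The share of members called was thus near or under that of all genes in either direction. With a trend on GC content and transcript length removed, the members' median minus that of all measured genes was -0.01, against -0.08 without that step (log2). Minus the median of genes at a CPM of 10 it was -0.005, against -0.07 without that step.

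Between the DSS libraries, nearly all members were lower where polydatin was present, each by a small amount. The median log2 ratio of DSS plus polydatin to DSS was -0.17, beside -0.01 over all measured genes and -0.05 over genes at a CPM of 10. Of the 46 members, 42 lay below DSS (91.3%), beside 51.6% of all measured genes and 57.7% of those at a CPM of 10. Intervals lay wholly below 1 for 34 members and wholly above 1 for 0, beside 3811 below and 2989 above among the 14792 measured genes. Among the 10084 genes at a CPM of 10, 3580 lay below and 2277 above. With library totals as the scale the members' counts were 22 below and 1 above. Beside these were 2493 below and 4331 above of 14868 measured genes, and 2336 and 3414 of 10115 at a CPM of 10. At 1.5-fold 0 members were higher and 0 lower, where 5.39% of all measured genes were higher and 2.6% lower. By the looser rule, PSMA3, PSMA4, PSMC1, PSMD1 and PSMG1 were lower, which is 5 of 46 (10.9%, beside 10.5% of measured genes), and 0 were higher, beside 11.3%. The members' ratios ran from 0.745 for PSMA4 to 1.16 for PSMC3IP. The 4 members above 1 were PSMC3IP, PSMG3, PSMA1 and PSMB10, each with an interval that includes 1.

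Against control, cells given DSS plus polydatin had the widest gap. The median log2 ratio was -0.25, beside -0.02 over all measured genes and -0.07 over genes at a CPM of 10. At 1.5-fold, 4 members were lower (8.7%, beside 12.4% of measured genes): PSMA4, PSMG1, PSMD14 and PSMD10. In the upward direction 0 were called, beside 16.0% of measured genes. By the looser rule 17 of 46 were lower (37.0%), beside 24.3% of measured genes and 29.5% of those at a CPM of 10, and 0 were higher, beside 23.5% of measured genes. This comparison shares its libraries with the others.

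Scaling moved these medians. With library totals in place of TMM factors, the median of all measured genes for DSS plus polydatin against control shifted up by 0.11 (log2). Relative to the median of all measured genes, the members' median lay at -0.23 with TMM factors and at -0.24 with library totals. With the trend on GC content and transcript length removed it lay at -0.14. Relative to the median of genes at a CPM of 10, the same values were -0.18, -0.18 and -0.095. For DSS plus polydatin against DSS the members' median was -0.08 with library totals in place of -0.17. Relative to all measured genes the values were -0.16 in both, and relative to genes at a CPM of 10 they were -0.12 in both. With library totals 38 of 46 members lay below DSS in place of 42.

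**Figure D3:**
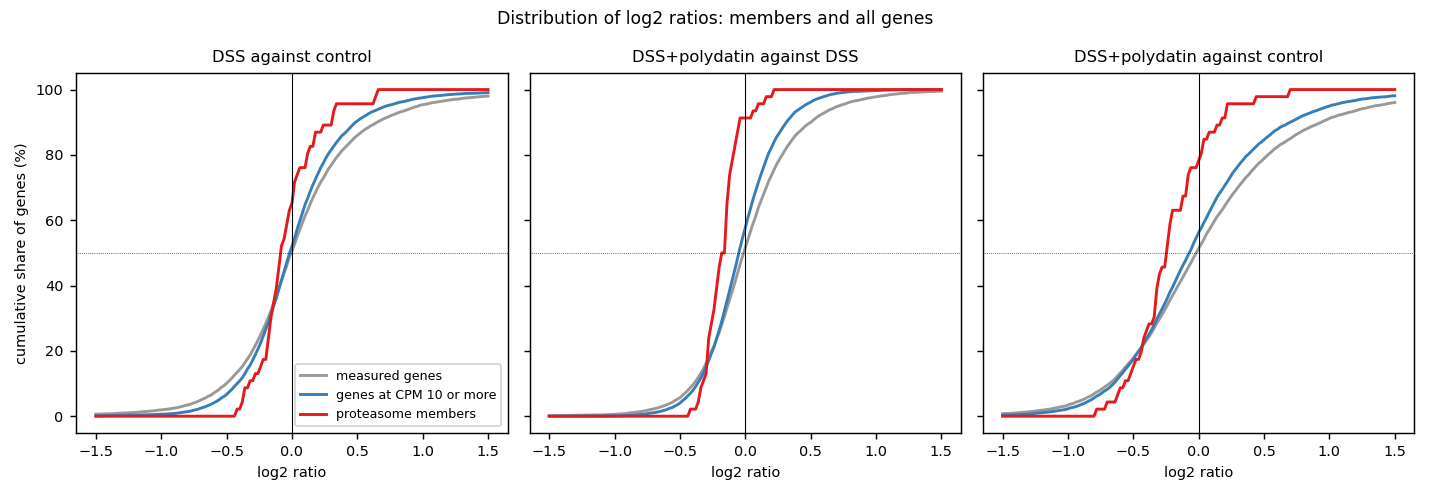
Cumulative share of genes, in percent, by log2 ratio for the 46 measured members (red), genes at a CPM of 10 or more (blue) and all measured genes (grey), with 1 panel per comparison. The vertical line marks equal levels and the horizontal line 50%, where the red curve crosses at -0.09, -0.17 and -0.25. For DSS plus polydatin against DSS the red curve reaches 91.3% before equal levels.

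Promoters of members were searched for motifs tied to the regulators above, in RefSeq promoter sequences on GRCh38.p14 that run from 250 bases before to 50 after each start. Sequences were found for 44 of the 50 members. The antioxidant response element core bound by NFE2L1 and NFE2L2, searched as TGACNNNGC on both strands, occurred in 15 of the 44 members (34.1%) and in 16.1% of all genes in the table. The interferon-stimulated response element, searched on both strands as TTTC, a pair of any bases and TTTC, occurred in 7 members (15.9%), PSMA4, PSMB4, PSMB8, PSMB10, PSME1, PSME2 and PSMG4, and in 4.38% of all genes. The CCAAT box occurred in 22 of the 44 and in 39.7% of all genes. A match describes these letters and shows no binding.

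The following 180-base stretches, which end at the start site, belong to members whose levels went different ways. PSMA4 had the lowest ratio of the measured members in both comparisons of DSS plus polydatin, PSMD3 was above control under DSS, PSME1 and PSME2 are partners that moved apart, and PSMB10 is the immunoproteasome subunit that was measured. Each is printed 5′ to 3′ on the strand of its gene, and capitals mark the motif matches. PSMA4 lies on the plus strand at chr15:78540606-78540785, PSMD3 on the plus strand at chr17:39980627-39980806, PSME1 on the plus strand at chr14:24136014-24136193, PSME2 on the minus strand at chr14:24146611-24146790 and PSMB10 on the minus strand at chr16:67936851-67937030.
PSMA4: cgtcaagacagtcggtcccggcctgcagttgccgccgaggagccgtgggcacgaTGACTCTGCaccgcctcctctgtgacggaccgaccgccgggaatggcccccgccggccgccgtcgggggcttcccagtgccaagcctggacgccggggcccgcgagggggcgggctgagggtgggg
PSMD3: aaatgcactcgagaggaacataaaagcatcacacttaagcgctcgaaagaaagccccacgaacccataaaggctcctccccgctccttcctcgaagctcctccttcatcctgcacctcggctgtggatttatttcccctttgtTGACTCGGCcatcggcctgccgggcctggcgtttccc
PSME1: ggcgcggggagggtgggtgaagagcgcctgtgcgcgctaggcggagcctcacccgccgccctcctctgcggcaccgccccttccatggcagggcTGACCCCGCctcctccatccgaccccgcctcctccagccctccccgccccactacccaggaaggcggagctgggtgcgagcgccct
PSME2: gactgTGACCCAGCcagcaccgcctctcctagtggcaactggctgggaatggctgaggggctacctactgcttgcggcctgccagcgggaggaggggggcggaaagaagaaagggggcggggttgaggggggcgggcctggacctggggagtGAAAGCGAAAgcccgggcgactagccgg
PSMB10: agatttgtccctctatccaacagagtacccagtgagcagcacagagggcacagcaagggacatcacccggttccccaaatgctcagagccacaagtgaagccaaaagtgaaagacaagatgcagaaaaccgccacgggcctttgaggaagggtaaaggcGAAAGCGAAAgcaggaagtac
In PSMA4 the TGACNNNGC match begins 126 bases before the start, in PSMD3 37 bases, in PSME1 86 bases and in PSME2 175 bases before it. The interferon-stimulated element match, which reads as its reverse complement in both stretches, begins 28 bases before the start in PSME2 and 21 bases before it in PSMB10. PSME1 also holds this element, after its start and outside the stretch. The match of PSMA4 to this element begins 240 bases before another start of the gene, which is not printed. PSMD3 holds a further TGACNNNGC match after its start. Where a gene had several starts, the one with the most matches in the 180 bases was printed. The matches shown do not overlap each other.

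The alpha ring held PSMA4, the measured member with the lowest ratio of DSS plus polydatin to DSS and to control. PSMA4 (chr15, from 78540405 on GRCh38) was at 291 CPM in control, 226 CPM in DSS and 168 CPM in DSS plus polydatin. Its ratios were 0.776 for DSS to control (0.745 to 0.808), 0.745 for DSS plus polydatin to DSS (0.710 to 0.781) and 0.578 for DSS plus polydatin to control (0.552 to 0.605). The order was control over DSS over DSS plus polydatin, with steps of similar proportion. PSMA3 followed the same order at 193, 171 and 134 CPM, with DSS plus polydatin at 0.695 times control (0.659 to 0.733). PSMA7, the most abundant alpha subunit, was at 378, 367 and 306 CPM, close in control and DSS and lower in DSS plus polydatin. PSMA5 was at 117, 110 and 94.1 CPM, in the same order.

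The other alpha subunits were among those with shared exons. PSMA6 was read 70 times in control, 110 times in DSS and 90 times in DSS plus polydatin. It was highest in DSS, at 1.54 times control (1.13 to 2.11). When the counts of its pseudogenes were added, of which PSMA6P1 held 67, 53 and 39, the log2 ratio dropped from 0.62 to 0.22 and the call was lost. PSMA2 had 38, 49 and 42 counts, with a DSS to control ratio of 1.26 (0.811 to 1.98) that its counts cannot tell from 1. PSMA1 was at 17.6, 16.7 and 17.8 CPM, and its interval held 1 in each comparison.

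By medians and summed counts, the beta ring changed less than the alpha ring. Median log2 ratios of the 7 beta subunits were -0.05 for DSS to control, -0.16 for DSS plus polydatin to DSS and -0.22 for DSS plus polydatin to control, and those of the 7 measured alpha subunits were -0.08, -0.22 and -0.30. Summed alpha counts per summed beta count were 0.961 in control, 0.856 in DSS and 0.774 in DSS plus polydatin, a ratio within a library that no scaling alters. That quotient in DSS was 0.891 times control (0.865 to 0.917), and in DSS plus polydatin 0.904 times DSS (0.876 to 0.932). PSMA4 is part of the alpha sum and among its largest terms. Mean log2 ratios of the rings were closer, in the same order of comparisons: 0.029, -0.214 and -0.185 for alpha and -0.004, -0.173 and -0.177 for beta. The alpha values include PSMA1, PSMA2 and PSMA6, which share exons.

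The 3 catalytic beta subunits differed from each other. PSMB5, which carries the chymotrypsin-like site, was at 109 CPM in control, 136 CPM in DSS and 127 CPM in DSS plus polydatin. Both DSS libraries were above control, DSS at 1.245 times (1.17 to 1.32) and DSS plus polydatin at 1.16 times (1.10 to 1.24). PSMB6, which carries the caspase-like site, was at 82.8, 74.9 and 60.9 CPM, lower in each step, with DSS plus polydatin at 0.735 times control (0.679 to 0.796). PSMB7, which carries the trypsin-like site, was at 215.5, 216 and 184.5 CPM, equal in control and DSS within counting error and lower in DSS plus polydatin. Of the structural beta subunits, PSMB4 was at 214, 230 and 219 CPM and PSMB2 at 133, 128 and 124 CPM, both nearly level. PSMB1 (139, 131 and 105.5 CPM) and PSMB3 (151, 134 and 120 CPM) were lowest in DSS plus polydatin.

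Immunoproteasome subunits were near the detection limit in all 3 libraries. For control, DSS and DSS plus polydatin in turn, PSMB8 had 6, 4 and 9 counts, and PSMB9 had 4, 2 and 6. PSMB10 had 25, 40 and 39 counts, or 1.38, 2.16 and 2.24 CPM. It was lower in control than in both DSS libraries, yet the intervals of the ratios, 1.57 for DSS to control (0.928 to 2.70) and 1.62 for DSS plus polydatin to control (0.959 to 2.80), include 1. Per kb of transcript, PSMB8 stood at 0.348%, 0.183% and 0.467% of PSMB5, PSMB9 at 0.290%, 0.157% and 0.6155% of PSMB6, and PSMB10 at 0.514%, 0.804% and 0.975% of PSMB7. No pair reached 1% in any library. The PSMB10 to PSMB7 quotient in DSS plus polydatin was 1.90 times that in control (1.12 to 3.28), which rests on 25 and 39 counts of a gene with shared exons. For the remaining quotients, the interval between any 2 libraries included 1, so a difference was not detectable at this depth.

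Among the 19S ATPases, PSMC4 differed from the other 5. It was at 121.5 CPM in control, 150 CPM in DSS and 138 CPM in DSS plus polydatin, above control in both DSS libraries, by 1.24 times (1.17 to 1.31) and 1.13 times (1.07 to 1.20). PSMC2 was at 146, 128 and 104 CPM, stepping down to 0.716 times control (0.674 to 0.760). PSMC1 was at 156, 152 and 119 CPM, level between control and DSS and 0.784 times DSS in DSS plus polydatin (0.740 to 0.8295). An opposite-strand gene, NRDE2, covers 82.2% of the main transcript of PSMC1, and whether the counting used strand is not given in the sources used here. PSMC3, PSMC5 and PSMC6 were at 96.5 to 179 CPM and lowest in DSS plus polydatin. The ATPase to non-ATPase quotient of summed counts was 0.407, 0.408 and 0.40, with intervals of its ratios that include 1 in all 3 comparisons.

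Non-ATPase subunits of the cap included PSMD14, the deubiquitinase that strips ubiquitin from substrates. It was at 170 CPM in control, 129 CPM in DSS and 110 CPM in DSS plus polydatin, lower in each step. The ratios were 0.762 for DSS to control (0.722 to 0.804) and 0.649 for DSS plus polydatin to control (0.613 to 0.687). PSMD1 and PSMD2, the large scaffold subunits, were at 291, 269.5 and 215 CPM and at 461, 425.5 and 396 CPM, each lowest in DSS plus polydatin. PSMD4, a ubiquitin receptor, was at 209, 194 and 175 CPM, in the same order. PSMD3 and PSMD11 were highest in DSS. PSMD3 was at 147.5, 172 and 156 CPM, with DSS at 1.17 times control (1.11 to 1.23), and PSMD11 at 215, 240.1 and 215.5 CPM, with DSS at 1.12 times control (1.07 to 1.17). For PSMD6, PSMD7, PSMD8, PSMD12 and PSMD13 levels ran from 55.5 to 175 CPM, with PSMD6 lowest relative to control in DSS plus polydatin, at 0.706 times (0.650 to 0.767). Opposite-strand exons cover 50.4% of the main transcript of PSMD7.

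The core and the cap were close in size of difference. All 17 cap subunits, ATPases and non-ATPases, were lower in DSS plus polydatin than in DSS with an interval below 1, from 0.784 times for PSMC1 to 0.933 times for PSMD13. Such intervals were held by 3811 of the 14792 measured genes and 3580 of the 10084 at a CPM of 10. With library totals as the scale all 17 still lay below 1, and 9 of the intervals did so wholly. On that scale 39.7% of measured genes and 43.4% of those at a CPM of 10 lay below 1. Their intervals did so wholly for 2493 of 14868 and 2336 of 10115. Among the 17 cap subunits, PSMC1, PSMC5 and PSMD7 overlap opposite-strand exons, as given above. The 20S to 19S quotient of summed counts was 0.674 in control, 0.668 in DSS and 0.654 in DSS plus polydatin. In DSS it was 0.990 times control (0.972 to 1.01), and in DSS plus polydatin 0.970 times control (0.951 to 0.990). Median log2 ratios for DSS plus polydatin to control were -0.26 for both the 14 measured core subunits and the 17 cap subunits.

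**Figure D4:**
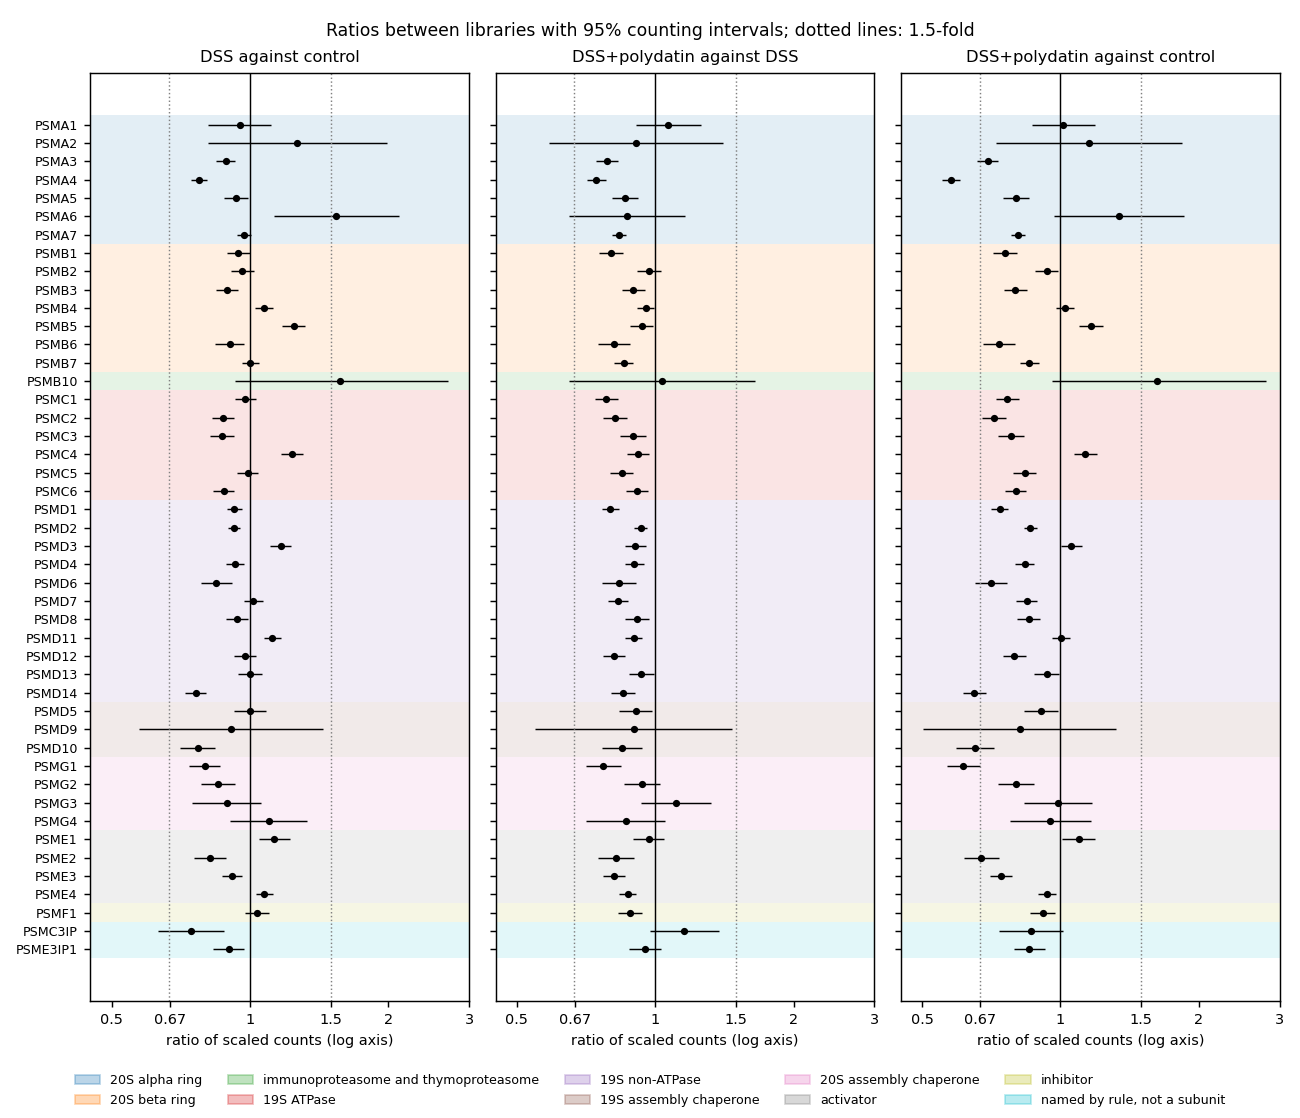
Ratio of scaled counts between libraries for the 46 measured members, on a log axis, with 95% counting intervals and dotted lines at 1.5-fold. In the middle panel the intervals of 34 members lie wholly left of 1, and in the right panel PSMA4, PSMD14, PSMD10 and PSMG1 lie left of the lower dotted line. PSMB10, PSMA2, PSMA6 and PSMD9 have the widest intervals.

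Of the 7 assembly chaperones, 4 were lower in DSS plus polydatin than in control with an interval below 1: PSMG1, PSMG2, PSMD10 and PSMD5. Beside them, 5083 of the 14792 measured genes had such an interval, as did 4465 of the 10084 at a CPM of 10. PSMG1, which with PSMG2 guides assembly of the alpha ring, was at 80.9 CPM in control, 64.5 CPM in DSS and 49.8 CPM in DSS plus polydatin. It stepped down each time, and DSS plus polydatin was at 0.615 times control (0.565 to 0.670). Its partner PSMG2 was at 62.8, 53.6 and 50.2 CPM, with DSS plus polydatin at 0.800 times control (0.732 to 0.875). PSMG3 and PSMG4, the second pair, had 257 to 283 and 187 to 230 counts, and no ratio of theirs had an interval that excludes 1. PSMD10, also called gankyrin, a chaperone of cap assembly, was at 63.3, 48.7 and 41.3 CPM, again in steps, with DSS plus polydatin at 0.6525 times control (0.594 to 0.717). PSMD5, another cap chaperone, was at 65.6, 65.7 and 59.6 CPM, and PSMD9 had 42, 39 and 33 counts, too few to tell its libraries apart.

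The calls of PSMD14 and PSMD10 at 1.5-fold depended on the scaling. For DSS plus polydatin against control, log2 ratios of -0.62 for both became -0.52 and -0.51 with library totals, short of 1.5-fold, and -0.51 and -0.44 with the trend on GC content and length removed. PSMA4 and PSMG1 stayed past 1.5-fold in both settings, at -0.68 and -0.59 with library totals. PSME2, at -0.57, passed 1.5-fold at -0.75 with the trend removed and at -0.60 with DESeq2 size factors.

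Activators did not move as a block. PSME1 and PSME2 encode the 2 kinds of subunit of one ring-shaped activator, which interferon induces. PSME1 was at 65.3 CPM in control, 73.9 CPM in DSS and 71.5 CPM in DSS plus polydatin. PSME2 was at 74.1, 60.8 and 49.9 CPM. The first was lowest in control and the second highest there. PSME1 counts per PSME2 count were 0.881 in control, 1.22 in DSS and 1.43 in DSS plus polydatin, free of scaling. That quotient in DSS was 1.38 times control (1.24 to 1.54), and in DSS plus polydatin 1.18 times DSS (1.05 to 1.32). An opposite-strand gene, RNF31, covers 12.04% of the PSME2 transcript and held 17 to 26 counts. PSME2 pseudogenes held at most 20 counts each.

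PSME3, a nuclear activator, was at 182, 166 and 135 CPM, and DSS plus polydatin was at 0.743 times control (0.704 to 0.783). PSME4, a large single-chain activator, was at 220, 236 and 205 CPM, highest in DSS. Its level in DSS plus polydatin was 0.936 times control (0.894 to 0.979), a direction that library totals turn to a log2 ratio of 0.01. PSMF1, the inhibitor, was at 117, 121 and 107 CPM, level between control and DSS, and 0.8815 times DSS in DSS plus polydatin (0.8285 to 0.938).

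A pair of genes carry members' names without being subunits. PSMC3IP, a partner of meiotic recombination proteins, was at 18.6, 13.9 and 16.1 CPM, lowest in DSS at 0.745 times control (0.631 to 0.879). The opposite-strand gene MLX covers 54.4% of its main transcript. PSME3IP1, which binds PSME3, was at 77.4, 69.6 and 66.2 CPM. Neither had an interval excluding 1 between the DSS libraries.

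Partners of the proteasome that are not named PSM were also mostly lower in DSS plus polydatin. Of 10 such genes, 8 were lower than control in DSS plus polydatin, 3 of them at 1.5-fold, with a median log2 ratio of -0.32. Over all measured genes 51.4% were below control, 12.4% were lower at 1.5-fold and the median was -0.02. SEM1, a small cap subunit, was at 148, 122 and 93.9 CPM, at 0.636 times control in DSS plus polydatin (0.597 to 0.676). UCHL5, a deubiquitinase of the cap, was at 80.7, 56.7 and 47.9 CPM, at 0.594 times (0.545 to 0.647), and PAAF1, a chaperone of cap ATPases, at 55.1, 37.5 and 33.5 CPM, at 0.6075 times (0.548 to 0.6735). All 3 stepped down from control to DSS to DSS plus polydatin. POMP, the chaperone that completes the core, was at 137.5, 126 and 102 CPM. ADRM1, the ubiquitin receptor that anchors UCHL5, went the other way, at 76.6, 105.5 and 106 CPM, or 1.38 times control in DSS (1.28 to 1.48).

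Among 8 genes that regulate proteasome transcription, 5 were above control in DSS plus polydatin (62.5%). Beside them, 48.6% of all measured genes and 21.7% of the measured members were above control. At 1.5-fold, 3 were higher than control in DSS and 3 in DSS plus polydatin, beside 9.45% and 16.0% of all measured genes, and in both it was MAFF, MAFG and MAFK, small partners of NFE2L1 and NFE2L2. MAFF was at 5.29 CPM in control, 16.35 CPM in DSS and 33.8 CPM in DSS plus polydatin, higher in each step, up to 6.40 times control (5.15 to 8.03). MAFG was at 28.5, 55.0 and 78.6 CPM and MAFK at 14.8, 33.5 and 48.75 CPM, in the same order. Between the DSS libraries 1 of the 8 was higher at 1.5-fold, beside 5.39% of all measured genes. That was MAFF, at 2.07 times DSS in DSS plus polydatin (1.80 to 2.38). NFE2L1 was at 490, 599 and 702 CPM and NFE2L2 at 151, 198 and 214 CPM, at 1.43 and 1.41 times control in DSS plus polydatin. DDI2 and NGLY1, which process the NFE2L1 protein into its active form, were lower, at 158, 131 and 112 CPM and at 35.6, 28.7 and 23.9 CPM.

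Among 11 ubiquitin genes and shuttles, 1 was called at 1.5-fold in each of the 3 comparisons. It was SQSTM1 each time, at 1.59 times DSS in DSS plus polydatin (1.55 to 1.64). All measured genes were called higher in 9.45% of cases in DSS against control and 16.0% in DSS plus polydatin against control. Between the DSS libraries the share was 5.39%, so these counts are near or under the background. SQSTM1, an autophagy receptor for ubiquitinated cargo, was at 163, 442 and 704 CPM. It was lowest in control and highest in DSS plus polydatin. UBB, a polyubiquitin gene, was at 633, 623 and 529 CPM, lowest in DSS plus polydatin.

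Of 13 genes of interferon response and antigen presentation, 12 were measured, and against control 4 were higher at 1.5-fold in DSS and 8 in DSS plus polydatin, with 0 lower. Beside them, 9.45% and 16.0% of all measured genes were higher and 5.81% and 12.4% lower. TAPBP, which loads peptides onto class I molecules, was at 38.1, 100.1 and 127 CPM, lowest in control. TAP1, the peptide transporter subunit, was at 6.50, 10.4 and 11.6 CPM, at 1.79 times control in DSS plus polydatin (1.42 to 2.27). NLRC5, the class I transactivator, had 7, 21 and 51 counts, highest in DSS plus polydatin. IRF1 was at 8.10, 8.96 and 12.9 CPM, ERAP2 at 15.5, 15.7 and 23.6 CPM, and HLA-E at 62.4, 86.2 and 112 CPM. HLA-B and HLA-C were 1.98 and 1.89 times control in DSS plus polydatin, and reads of these near-identical genes may be split by the counting. PSMB8 and PSMB9, the immunoproteasome genes beside TAP1 and TAP2 on chromosome 6, had at most 9 counts in the same libraries.

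**Figure D5:**
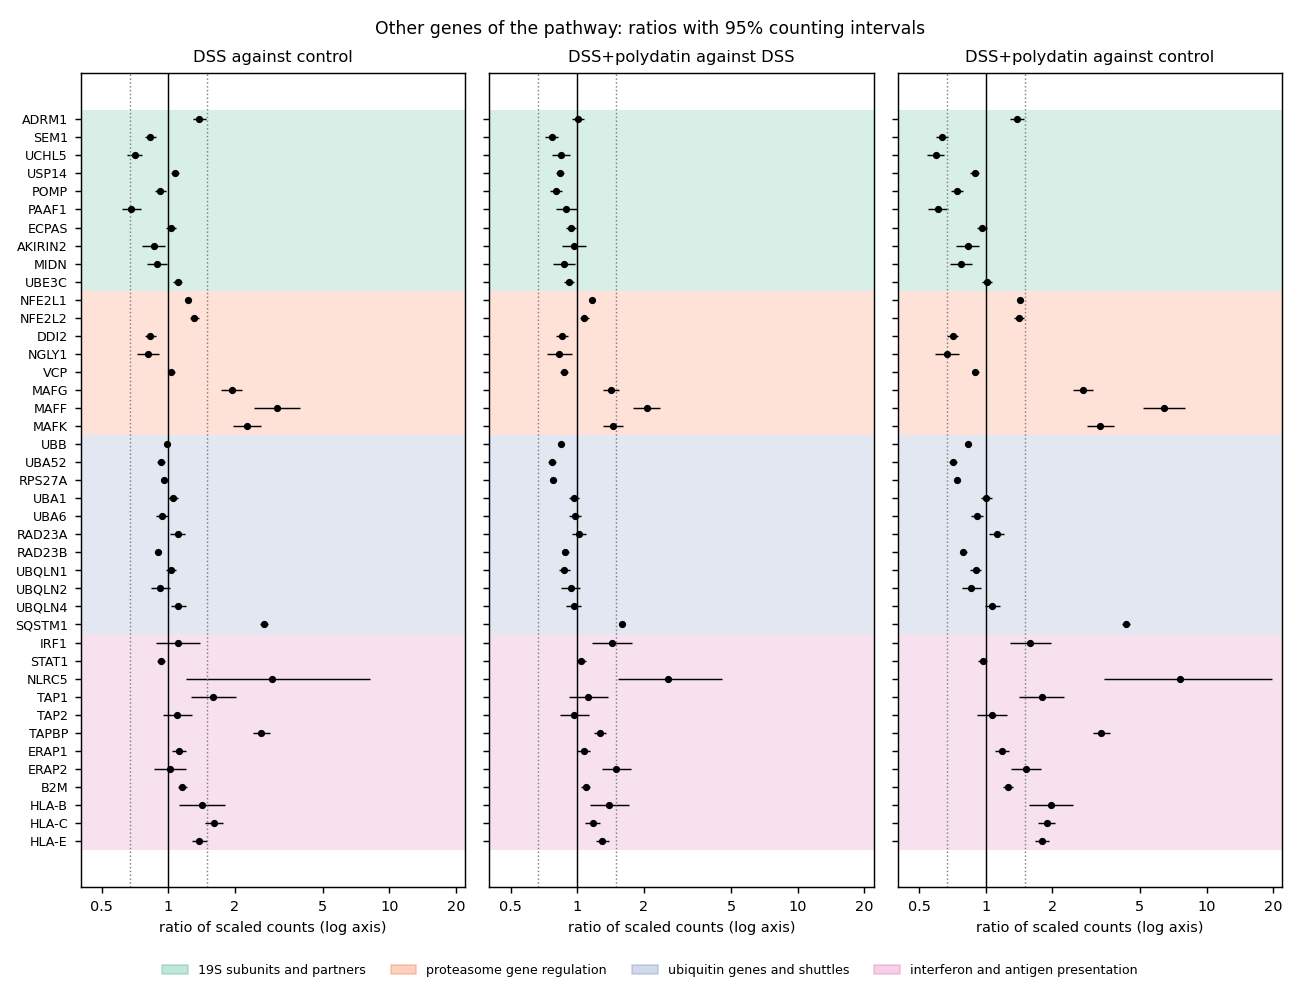
Ratio of scaled counts for the other genes of the pathway, on a log axis, with 95% counting intervals and dotted lines at 1.5-fold, grouped by the 4 lists. In the right panel MAFF at 6.40, SQSTM1 at 4.33 and NLRC5 at 7.59 lie farthest right, and UCHL5 at 0.594 lies farthest left.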

How the data were processed

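Gene-level RNA-seq read counts were analysed for 3 libraries of Caco-2 cells, 1 per group. Per the labels' protocols, Trizol was used to extract RNA and a VAHTS Universal V6 kit to build the libraries. Reads were aligned with HISAT2 to GRCh38, per the submitters' processing notes. What program counted the reads, with which annotation release, strand setting and aligner version, is not given in the sources used here. As a single table, the authors deposited whole-number counts per Ensembl gene without normalization, which totalled 18695613 in control, 18825914 in DSS and 16667622 in DSS plus polydatin.

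From these counts, TMM factors (0.971, 0.984 and 1.05) were computed with edgeR 4.0.16 in R 4.3.3, and ratios with exact 95% Clopper-Pearson intervals with scipy 1.17.1 in Python 3.11.15. Quotients within a library were compared by the exact conditional interval of the odds ratio. Intervals and the limit of 3 counts come from the counts alone, with 1 library per group, and cover counting error only. Reads carried no molecular identifiers, so repeated copies of a molecule are not told apart. Ratios were computed for genes at a CPM of 1 or more in at least 1 library, and the computation was tested on simulated data.

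Symbols came from a table that names 60463 of 60664 identifiers. Types, coordinates, main transcripts and exons came from GENCODE release 29 on GRCh38. Promoter sequences came from RefSeq on GRCh38.p14. Given in full were members called at 1.5-fold, the 3 highest and 3 lowest by ratio in each comparison, PSMB5 to PSMB10, activators, the inhibitor and core chaperones. Among other pathway genes those at 1.5-fold and NFE2L1, NFE2L2, POMP, ADRM1 and SEM1 were given. A few genes of the other lists are not reported here and were left out of their counts. Other named genes were chosen after their values were seen. The members and lists were chosen with earlier results of these data known. Alternatives were library totals, DESeq2 1.42.0 size factors, TMM factors from protein-coding genes, no filter, a CPM of 10, thinning to the smallest library, 2 counts added, removal of a trend on GC content and length, pseudogene counts added, a looser (0.8 or its inverse) and a 2-fold rule, the mean for the median and, chosen after seeing the data, leaving out members with shared exons. The deposited counts hold only the 3 libraries used here, and no group given erastin or a ferroptosis inhibitor is among them.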

Additional observations from a re-analysis of the deposited data

How the results depend on the processing

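No paired analysis was possible because each group has 1 library. With DESeq2 size factors, TMM factors from protein-coding genes, thinned counts, 2 counts added and no filter, the members' counts of calls and the medians of members, core and cap kept their direction and moved within counting error. Library totals gave a median log2 ratio of -0.071 for the cap in DSS plus polydatin against DSS, and against control -0.14 for all members, -0.16 for the core and -0.15 for the cap, with 1 member higher and 2 lower. Over all members the DSS plus polydatin to DSS median was -0.08 with that scale. For DSS against control, the 1 member higher became 0 at a CPM of 10, 0 with pseudogene counts added, 0 at 2-fold and 0 without the 5 members that share exons. By the looser rule (a ratio of 0.8 or its inverse) 5 members were lower in DSS against control, 5 in DSS plus polydatin against DSS and 17 in DSS plus polydatin against control, and at 2-fold 0 were lower in the last. The core median for DSS against control turned to 0.000487 with the trend on GC content and length removed and to 0.012 with the mean, and for DSS plus polydatin against control it was -0.16 and -0.18. GC content and length were known for 99.4% of measured genes and all 50 members. The cause of these shifts was not tested, except that the CPM filter and the omission of 5 members leave PSMA6 out. Spread between cultures cannot be estimated from 1 library per group, and counts as low as the 2 to 9 of PSMB8 and PSMB9 and the 25 to 40 of PSMB10 limit what ratios can show.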

Other observations

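Noncoding genes named after members were read from the same table. PSMA3-AS1 (chr14, minus strand), an antisense RNA beside PSMA3, was at 53.0 CPM in control, 57.2 CPM in DSS and 59.1 CPM in DSS plus polydatin, while PSMA3 was highest in control. Its ratio of DSS plus polydatin to control was 1.12 (1.02 to 1.22). PSMG3-AS1 had 52, 75 and 75 counts, with DSS plus polydatin at 1.502 times control (1.04 to 2.18). PSMD6-AS2 had 29, 30 and 36 counts, which do not tell the libraries apart. PSMB8-AS1, PSMD14-DT, PSMD7-DT and PSMD6-AS1 had 1 to 10 counts in a library. Since it is not given in the sources used here whether counting used strand, reads of a member and its antisense neighbour cannot be told apart where they overlap.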
